A study of Mus musculus with 319 samples.

Results

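Keratins are the proteins of the intermediate filaments of epithelial cells, and the cornified envelope is the protein shell that replaces the membrane of the outermost skin cells. The probes described here are those whose gene symbol in the platform table begins with Krt, Sprr or Lce, or is Lor. The rule took 56 genes with 60 probes, out of 23382 probes on the arrays, and probes with a single symbol covered 11631 genes in all. All 60 probes had a value on at least 80% of arrays. They were read on 319 2-colour arrays, each of muscle RNA from an F2 mouse of a C57BL/6J by C3H/HeJ intercross. All animals, of both sexes, were ApoE null and were fed a Western high-fat diet from week 8 to week 24. RNA of each animal carried Cy3 and a pool with equal portions from every sample carried Cy5. The labels give no treatment, genotype class or batch, and a sex for a single animal, so the arrays form 1 group and the comparisons are between genes across animals. Each array is 1 animal by its label, except that a pair of arrays carries the number 227, of which 1 is labelled 227_2. The other stands out of number order, among higher numbers, so whether the pair is 1 animal is open. Both were placed at 227.

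Keratin filaments are built from pairs of a type I and a type II chain, and the pair in use marks the kind of epithelium. Dividing basal cells of skin make Krt5 and Krt14, cells that leave the basal layer change to Krt1 and its partners, and single-layered epithelia of glands and ducts use Krt8, Krt18 and Krt19. The hair follicle has keratins of its own for the shaft and for its inner root sheath, packed with keratin-associated proteins (Krtap). Loricrin (Lor), the small proline-rich proteins (Sprr) and the late cornified envelope proteins (Lce) are cross-linked into the envelope.

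All values are log2 ratios of the animal's RNA to the pool. A ratio of 0 means the same amount as in the pool, and a ratio over 1 means more than 2 times the pool. The pool contains every animal, so a gene that is high in few animals leaves most of the others below 0. The direction of the ratio was taken from the Y-linked genes: Eif2s3y lay between -6.49 and -3.71 on 164 arrays and between -0.79 and 1.49 on 155, and no array lay far above the pool as a turned ratio would require. Array medians lay between -0.081 and 0.14, and the SD within an array between 0.213 and 1.08. Of 50721 pairs of arrays, 3735 had a correlation across probes under -0.3, with a median over all pairs of 0.27, and the direction was kept for every array because the labels give each animal the same dye. Of 7 skeletal muscle markers on the list used here, 4 had probes, and these held values on 22 to 242 arrays, too few to be tested. A ratio to a pool of the same tissue gives no absolute level.

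The members ranged from nearly flat probes to some of the most variable of the array. The SD over arrays exceeded the 95th percentile of all tested probes (0.69) for 11 of the 60 members, or 18.3%, and it was below the median of all tested probes (0.227) for 28. No array had a ratio over 1 for 21 members, and 224 of the 319 arrays had no member over 1. Each probe's values were also split in 2 at the point with the largest sum of squares between sides, with at least 15 arrays a side. The split point is called the gap, and the values were taken to fall in clusters where the means of the sides differed by over 4 SDs within sides. By that rule 24 of the 60 members fell in clusters, against 5.74% of the tested probes.

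**Figure D1:**
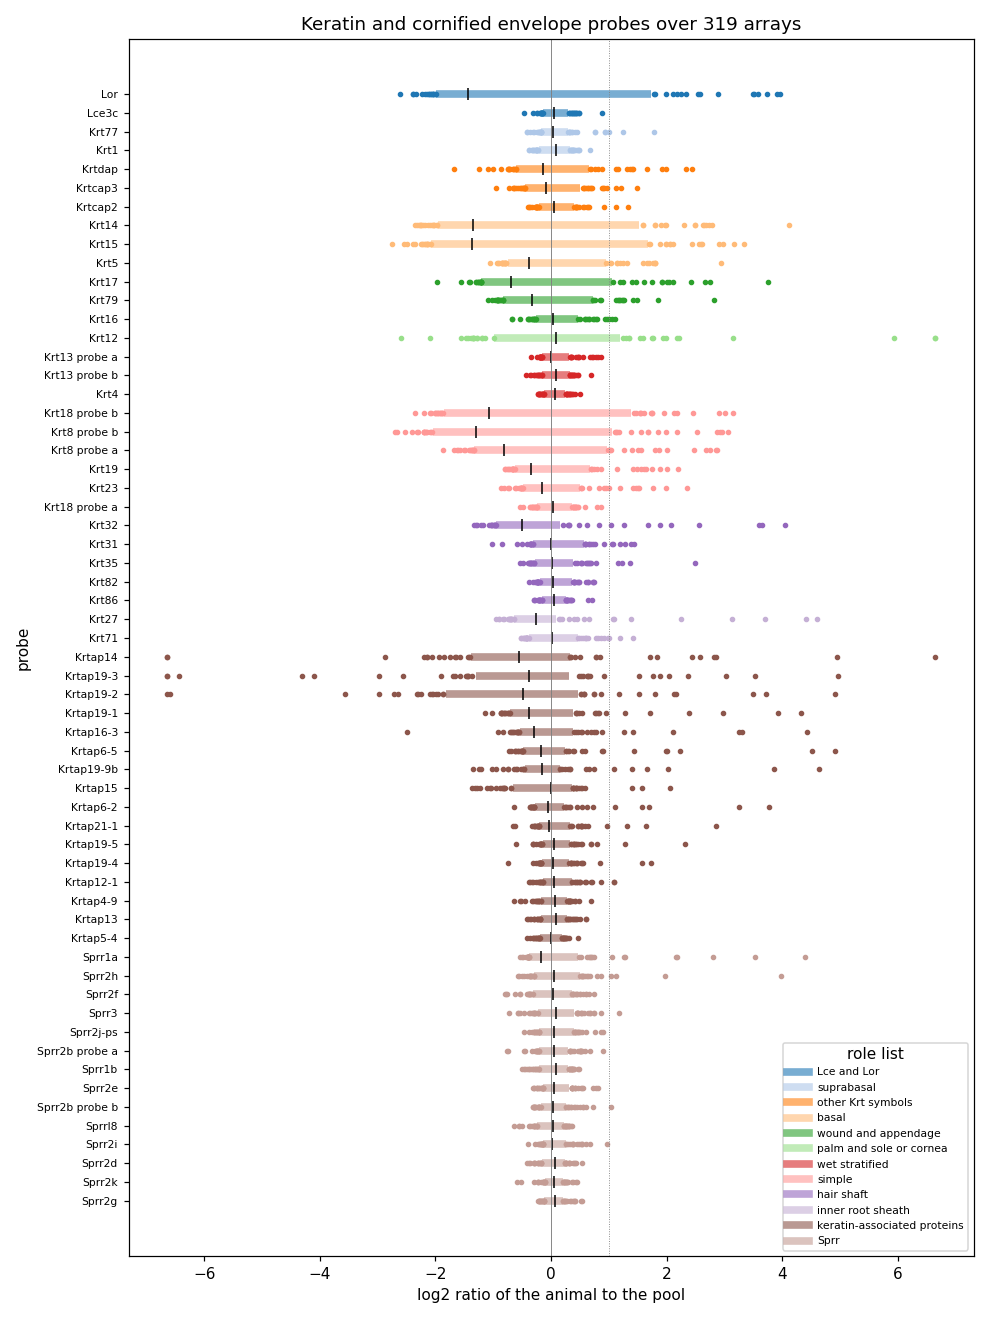
Log2 ratio of the animal to the pool (horizontal axis) for each of the 60 member probes (rows), coloured by role list and ordered within it by SD. Bars run from the 5th to the 95th percentile of the arrays, black ticks are medians and points are arrays outside the bar; Lor, Krt14, Krt15, Krt8 and Krt18 probe b spread widely below and above 0, several hair genes have a narrow bar and a few arrays far to the right, and most Sprr probes stay near 0.

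Lor encodes loricrin, the most abundant protein of the cornified envelope. It had a lowest value of -2.62, a median of -1.44 and a highest of 3.97 over 319 arrays (SD 1.11). Its values fell in clusters, with 291 arrays up to 0.022 and 28 arrays from 0.42 upwards, and means of -1.47 and 2.10. Of the 28, 24 had a ratio over 1, led by animals 52 and 176 at 3.97 and 3.91. In bulk RNA a larger share of such cells in the sample and more RNA per cell cannot be told apart.

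Because Lor fell in clusters, limma was fitted to its values within each side of the gap, over every tested probe with Benjamini-Hochberg adjustment. Among the 28 arrays above the gap, 6 of the 59 other members were higher where Lor was higher (10.2%), against 0.306% of all 23189 tested probes, and no member was lower. The 6 were Krtdap, Krt23, Krt79, Krt14, Krt5 and Krt15. The median slope was 0.0036 over all 59 members, 0.61 over the 3 basal ones and -0.025 over the 14 Sprr probes, beside -0.01 over all tested probes. With quantile normalization of the arrays none of the 6 passed, although no slope changed sign. Without animal 176, 3 of them were called, the calls of Krt14, Krt5 and Krt15 being lost. With the 2 most distant Lor values left out, 2 were called.

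Krtdap, the gene of a secreted protein of differentiating keratinocytes, had the largest correlation with Lor of the 6 on the 28 arrays above the gap. Its ratios ran from -1.67 to 2.44 with a median of -0.14 over 318 arrays, and 10 of the 11 arrays over 1 were also over 1 for Lor. Above the gap it changed by 0.61 ± 0.05 log2 units (SE, 28 arrays) per log2 unit of Lor, with a limma adjusted p of 3.65e-09. The Pearson r of the pair was 0.92 and the Spearman rho 0.90, each with a permutation p of 1e-05, the smallest that 100000 resamples can give, and r was 0.90 without the 2 farthest arrays. Below the gap the same pair had r = 0.15 (permutation p = 0.0113) and rho = 0.14 (permutation p = 0.0201) over 290 arrays. These correlations belong to a family of 92 relations chosen after earlier values were seen, and their adjusted p was 1.8e-05 for r above the gap.

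To show where Lor and the members that did or did not vary with it differ in letters, the 250 bases before the start are printed for 6 genes, taken from RefSeq on GRCm38.p6. They were searched on both strands for TATAAA, the TATA box, for TGAGTCA, a site of the AP-1 factors, and for CTTTGAA, a site of the LEF1 factor of hair. Capitals mark these matches, which did not overlap with each other. Lor (chr3:92083143-92083392, minus strand) and Krtdap (chr7:30787655-30787904, plus strand) each held 1 TATAAA and 1 TGAGTCA. Sprr2e (chr3:92351893-92352142, plus strand) held the same pair and is shown because it hardly varied. Sprr1a (chr3:92485882-92486131, minus strand), Krt27 (chr11:99351119-99351368, minus strand) and Krt32 (chr11:100088270-100088519, minus strand) are shown because they rose together on a few arrays.
Lor: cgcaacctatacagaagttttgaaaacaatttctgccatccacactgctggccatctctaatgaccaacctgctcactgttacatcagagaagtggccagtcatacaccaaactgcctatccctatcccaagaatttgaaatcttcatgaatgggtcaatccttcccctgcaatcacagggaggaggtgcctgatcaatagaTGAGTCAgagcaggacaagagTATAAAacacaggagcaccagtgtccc
Krtdap: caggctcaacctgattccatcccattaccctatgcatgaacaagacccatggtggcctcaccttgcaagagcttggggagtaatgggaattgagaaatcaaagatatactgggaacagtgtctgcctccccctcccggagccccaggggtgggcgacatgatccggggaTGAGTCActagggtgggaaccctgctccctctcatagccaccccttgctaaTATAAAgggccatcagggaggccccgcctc
Sprr2e: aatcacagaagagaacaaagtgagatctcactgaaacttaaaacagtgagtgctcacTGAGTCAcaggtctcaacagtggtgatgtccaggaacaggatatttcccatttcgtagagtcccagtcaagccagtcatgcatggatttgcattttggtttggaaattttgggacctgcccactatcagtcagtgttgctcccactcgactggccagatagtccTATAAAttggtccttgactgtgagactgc
Sprr1a: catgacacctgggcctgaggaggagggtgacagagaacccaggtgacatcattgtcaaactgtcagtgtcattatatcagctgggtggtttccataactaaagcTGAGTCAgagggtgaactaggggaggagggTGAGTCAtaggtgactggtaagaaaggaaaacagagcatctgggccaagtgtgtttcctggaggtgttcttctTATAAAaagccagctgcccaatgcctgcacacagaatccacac
Krt27: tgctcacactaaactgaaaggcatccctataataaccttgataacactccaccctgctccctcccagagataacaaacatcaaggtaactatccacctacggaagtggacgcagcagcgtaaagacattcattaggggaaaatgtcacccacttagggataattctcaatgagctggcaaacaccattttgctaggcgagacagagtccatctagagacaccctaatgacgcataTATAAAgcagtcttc
Krt32: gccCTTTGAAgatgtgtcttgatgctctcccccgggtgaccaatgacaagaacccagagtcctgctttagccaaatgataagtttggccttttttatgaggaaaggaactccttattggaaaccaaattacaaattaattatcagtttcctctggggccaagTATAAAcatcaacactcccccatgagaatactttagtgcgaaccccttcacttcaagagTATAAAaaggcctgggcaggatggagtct
Sprr1a held 2 matches of TGAGTCA with 1 TATAAA, Krt27 held 1 TATAAA, and Krt32 held 2 TATAAA and 1 CTTTGAA. Of the 56 member genes 43 had an entry in the RefSeq table, with 45 windows. TATAAA was in 24 of these windows (53.3%) and in 12.4% of all 32851 windows of the same length, and TGAGTCA was in 13 (28.9%) against 4.46%. CTTTGAA was in 5 windows (11.1%) against 4.46%. The windows of Krt5, Krt14, Krt8, Krt18 and Krt23 held none of the 3, and the Sprr2 windows belong to near-identical copies of a gene. These matches describe letters only.

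The basal keratins, which build the filaments of the dividing layer, were all raised with Lor. Krt15, a keratin of basal and bulge cells, ran from -2.76 through a median of -1.37 to 3.34, and 21 of its 28 arrays over 1 were over 1 for Lor. Krt14 ran from -2.35 through -1.36 to 4.12, and Krt5, its partner, from -1.06 through -0.38 to 2.94. Above the Lor gap the slopes were 0.61 ± 0.13 (SE) for Krt15, 0.67 ± 0.13 for Krt14 and 0.44 ± 0.09 for Krt5, with limma adjusted p of 0.0173, 0.0108 and 0.0113. All 3 basal genes thus passed, but not one of them did so without the arrays that were also over 1 for Krt32, a hair keratin. That setting also removes arrays 52 and 176, which have the highest Lor, so fewer arrays and a shorter range of Lor remain. Over the 13 alternatives other than leaving out 1 array, the lowest slopes were 0.54 for Krt15, 0.32 for Krt14 and 0.16 for Krt5. Whether the relation of basal keratins to Lor depends on hair genes was not tested.

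The basal keratins were closely correlated with each other. Krt14 and Krt5 had r = 0.98 and rho = 0.97 on the 28 arrays above the gap, and r = 0.89 and rho = 0.72 on the 291 below (each permutation p = 1e-05). Leaving out the 2 farthest arrays left r at 0.97 and 0.88. Krt17, a keratin of wounds and of skin appendages, had r = 0.91 and rho = 0.88 with Krt14 above and r = 0.89 and rho = 0.72 below (each permutation p = 1e-05). With Lor itself, above the gap, its slope was 0.59 ± 0.15 and did not pass (limma adjusted p = 0.108).

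Krt79, expressed in the upper hair follicle and the sebaceous gland duct, rose with Lor above the gap by 0.46 ± 0.09 (27 arrays, limma adjusted p = 0.00836). It ran from -1.10 through -0.32 to 2.82, and of its 11 arrays over 1, 5 were over 1 for Lor and the other 6 for neither Lor, Krt32 nor a simple epithelial keratin. Krt23, a small type I keratin of several epithelia, rose by 0.39 ± 0.05 (limma adjusted p = 0.0001) and ran from -0.87 through -0.16 to 2.35. Its call held in all 28 fits that each left out 1 array, as did those of Krtdap and Krt79. Other alternatives removed some of these calls. Krt79 lost its call with quantile normalization, with normal scores, without the 2 farthest arrays and without the arrays over 1 for Krt32. Krt23 lost it with quantile normalization and with normal scores, and Krtdap with quantile normalization only.

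The keratins of the layers between the basal cells and the envelope did not pass among the 28 arrays above the gap, but passed in fits over all arrays, which mix the step at the gap with the slopes on either side. Krt1, the type II keratin of those layers, ran from -0.39 through 0.092 to 0.68 and was never over 1. Its slope above the gap was 0.033 ± 0.030 (limma adjusted p = 0.877). Krt77, another type II chain of skin and sweat ducts, ran from -0.42 through 0.034 to 1.79 and had a slope of 0.16 ± 0.08 (limma adjusted p = 0.877). Below the gap Krt1 passed, at 0.083 ± 0.026 (limma adjusted p = 0.00415), and Krt77 did not, at 0.03 ± 0.02 (limma adjusted p = 0.203). That call of Krt1 held in 11 of 12 alternatives and was lost without arrays of outlying SD (limma adjusted p = 0.0951). Krt1 rose with the SD within the array, with r = 0.22 (permutation p = 5e-05) and rho = 0.19 (permutation p = 0.00067) over 319 arrays. Over all 319 arrays both were higher with Lor, Krt77 by 0.095 and Krt1 by 0.026 (limma adjusted p = 3.04e-20 and 0.0314). With the side of the gap as a factor their slopes were 0.086 and 0.06 (limma adjusted p = 0.00225 and 0.0131). All 3 arrays over 1 for Krt77 were also over 1 for Lor: animals 76, 302 and 317, at 1.79, 1.25 and 1.01. On arrays 52 and 176, with the highest Lor, Krt77 was near the pool, as the plot of members against Lor shows. Lce3c, the only late envelope gene measured, ran from -0.47 to 0.88 with an SD of 0.139 and was never over 1.

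**Figure D2:**
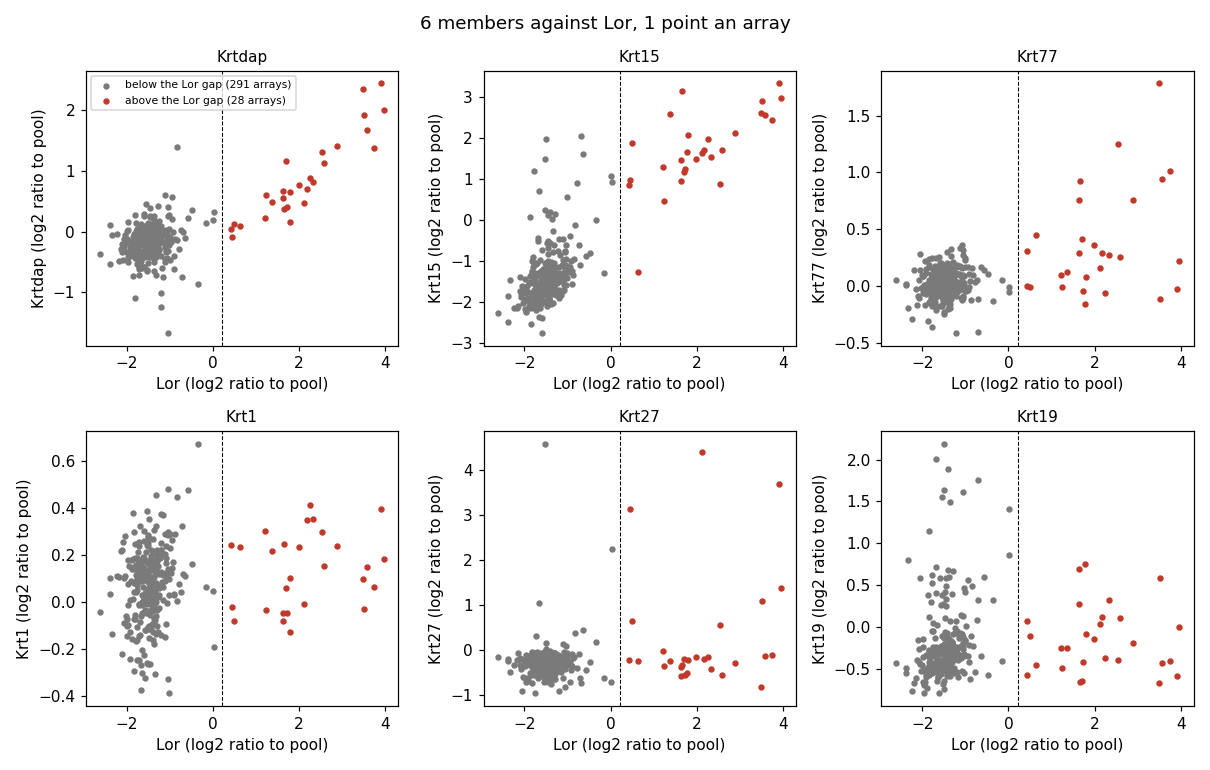
Log2 ratio to the pool of Krtdap, Krt15, Krt77, Krt1, Krt27 and Krt19 (vertical axes) against that of Lor (horizontal axes), with 1 point an array. Red points are the 28 arrays above the Lor gap and grey points the 291 below, parted by the dashed line; Krtdap and Krt15 climb with Lor among the red points, Krt1 stays within -0.39 and 0.68, Krt27 is high on a few arrays of both colours, and Krt19 reaches its highest values among the grey points.

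Among genes that are not members, those most like Lor over the 28 arrays were Csta1 (r = 0.90), Gm94 (0.84), Il1f5 (0.84), Defb6 (0.83), Klk7 (0.80), Pkp1 (0.78), Anxa8 (0.75), Casp14 (0.75), Serpinb5 (0.75) and Aqp3 (0.73). Csta1 encodes a cystatin protease inhibitor, Klk7 a protease that sheds the outer layer, Pkp1 a desmosome protein and Casp14 a caspase of cornifying cells. Of 49 further cornification genes on the list, 29 were measured with 34 probes. With limma, 5 of these 34 were higher with Lor above the gap and none lower: Klk7 (slope 0.71), Serpinb5 (0.75), Pkp1 (0.60), Perp (0.55) and Casp14 (0.41). Involucrin (Ivl, slope 0.02), hornerin (Hrnr, 0.0038) and transglutaminase 3 (Tgm3, -0.03), all envelope genes, did not pass. The median slope of the 34 was 0.054. Of 10 probes of general skin epithelial markers 2 were higher, those of Perp and Col17a1. None of the probes on the lists for simple epithelium, mesothelium, mammary gland, melanocytes, sebaceous gland, hair follicle, lymphocytes, neutrophils, macrophages and adipocytes passed.

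Below the gap the question is whether members followed Lor among the 291 arrays where it was low. There 38 of 59 members were higher with Lor (64.4%), against 27.7% of all tested probes, and 2 were lower (3.39%) against 24.2%. With so many probes of every kind called, the calls say little of single genes. The slopes were largest for Krt15 (0.89 ± 0.10), Krt14 (0.82 ± 0.13), Krt8 probe b (0.60 ± 0.16), Krt8 probe a (0.47 ± 0.13), Krt5 (0.45 ± 0.06) and Krt17 (0.45 ± 0.09), each with a limma adjusted p of 0.000965 or less. Krt32, Krtap19-1, Krt19, Krt23, Krtap6-5, Sprr1a and Krtap16-3 followed with 0.24 to 0.35. The 2 lower members were the hair protein genes Krtap15, at -0.22 ± 0.05, and Krtap4-9, at -0.057 ± 0.024. Under quantile normalization the slope of Krtap15 turned to 0.059, and those of Krtdap, Krt79 and Sprr2f turned negative. Over all 319 arrays, which mixes the step between the sides with the slope within them, 24 members were higher (40.7%) against 2.94% of all tested probes, and none was lower, against 5.06%.

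The simple epithelial keratins Krt8, Krt19 and Krt18 probe b formed a second group, with other arrays at its top than Lor. Krt8 and Krt18 are the obligate pair of single-layered epithelia, and Krt19 is the small type I chain of ducts. Krt8 probe b ran from -2.70 through -1.29 to 3.06 and Krt8 probe a from -1.87 through -0.81 to 2.87. Krt19 ran from -0.80 through -0.34 to 2.19. All 10 arrays over 1 for Krt19 were also over 1 for Krt8 probe b, and not one of them was over 1 for Lor. Of the 20 arrays over 1 for Krt8 probe b, 2 were over 1 for Lor. Krt23 is on the same list of simple keratins but was called with Lor above the gap. Of its 8 arrays over 1, 4 were over 1 for Lor. Its r with Krt8 probe a was 0.16 above the gap (permutation p = 0.413) and 0.54 below (permutation p = 1e-05).

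The pair of Krt18 probes disagreed. Probe b ran from -2.35 through -1.07 to 3.15 with an SD of 1.03, and probe a from -0.54 through 0.035 to 0.86 with an SD of 0.187. Their r was -0.04 below the Lor gap (permutation p = 0.502, rho = -0.02, permutation p = 0.686). Probe b had r = 0.85 and rho = 0.75 with Krt8 probe a below the gap (each permutation p = 1e-05), while probe a had r = 0.03 (permutation p = 0.596) and rho = 0.05 (permutation p = 0.36). The Krt8 probes had r = 0.96 and rho = 0.87 with each other (each permutation p = 1e-05). On these arrays only probe b of Krt18 thus varied with its partner gene, and the target of probe a within the gene was not given in the sources read.

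The mean of the Krt18 probes did not fall in clusters, so limma was fitted on it over all 319 arrays. Of the 58 other members 12 were higher with Krt18 (20.7%) against 20.6% of all tested probes, and 13 were lower (22.4%) against 34.1%. The share of higher members equals the background, so the count sets the keratins apart in no way. The share of higher among all called probes was 37.6%, and 51.5% after array medians were subtracted. The 13 lower members were 4 under quantile normalization and 4 with the first principal component removed.

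The slopes of the other simple keratins with Krt18 were 1.70 ± 0.05 for Krt8 probe b, 1.29 ± 0.04 for Krt8 probe a and 0.69 ± 0.03 for Krt19, with limma adjusted p of 1.37e-99, 4.46e-89 and 3.8e-60, against a median of -0.022 over all tested probes. These sizes depend on the anchor, which averages a varying probe with a flat one. With Krt18 probe b alone, a setting added after the data were seen, they were 0.87, 0.65 and 0.34, and those of Krt14, Krt15, Krt5 and Krt17 0.59, 0.32, 0.22 and 0.35, all still called by limma (adjusted p of 3.62e-07 or less). All 4 tested probes of the simple list were higher, with Krt23 the smallest at 0.27 ± 0.04. The basal keratins Krt14 (1.15 ± 0.10), Krt15 (0.66 ± 0.12) and Krt5 (0.44 ± 0.05) were higher as well, and so were Krt17 (0.68 ± 0.07) and Krtcap3 (0.38 ± 0.03), each with a limma adjusted p of 1.97e-07 or less. Lor itself did not pass, at 0.20 ± 0.12 (limma adjusted p = 0.147). Krt1 and Krt77 were lower with Krt18, by slopes of -0.05 ± 0.02 and -0.05 ± 0.02 (limma adjusted p = 0.00824 and 0.0366), but each call was lost under 3 of 15 alternatives, with limma adjusted p up to 0.588 for Krt1 and 0.281 for Krt77. The slope of Krt1 turned to 0.018 with the first principal component removed.

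Basal keratins were thus raised in company with Lor on some arrays and with simple keratins on others. Krt14 was over 1 on 32 arrays. Lor was over 1 on 17 of them, and on 10 others Krt8 probe b, Krt18 probe b or Krt19 was over 1 and Lor was not. Krt32 was over 1 without Lor on 5, some of them counted among those 10, and on 2 none of these genes was over 1. Krt17 showed the same split, with Lor over 1 on 7 of its 17 arrays and a simple keratin without Lor on another 7.

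Krt14 and Krt19 had r = 0.75 and rho = 0.63 on the 291 arrays below the Lor gap (each permutation p = 1e-05), and r = 0.10 (permutation p = 0.609) and rho = 0.07 (permutation p = 0.707) on the 28 above it. The difference between the sides was not tested. On array 104 the groups came apart in another way. Krt8 probe b was at 2.86 and Krt19 at 2.19 there, while Krt14 was at -1.60 and Krt18 probe b at 0.16. That array was singled out after its values were seen.

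**Figure D3:**
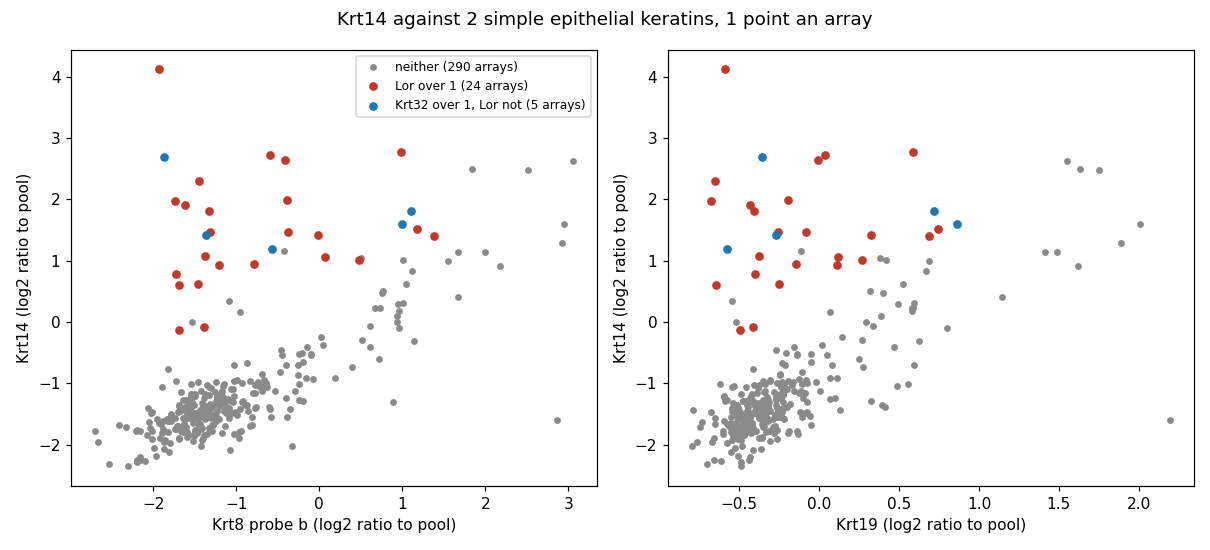
Log2 ratio to the pool of Krt14 (vertical axis) against Krt8 probe b (left) and Krt19 (right), with 1 point an array. Red points are the 24 arrays over 1 for Lor, blue points the 5 over 1 for Krt32 but not for Lor, and grey points the other 290; the grey points rise along a diagonal with the simple keratins, most red and blue points lie above that diagonal, and 1 grey point with Krt8 probe b at 2.86 lies far under it.

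The genes most like Krt18 that are not members were Aqp5 (r = 0.79), Cldn3 (0.79), Ptn (0.77), Foxa1 (0.76), Stc2 (0.75), Epcam (0.75), Tfap2c (0.74), Wfdc18 (0.74), Gata3 (0.72) and Cldn4 (0.72), over 319 arrays. Epcam, Cldn3 and Cldn4 encode junction and adhesion proteins of simple epithelia, and Foxa1, Tfap2c and Gata3 encode transcription factors. Marker lists of several cell types moved with Krt18 too. With limma, 8 of 11 probes for simple epithelium were higher and 1 lower, and 3 of 5 for the mammary gland were higher, namely the milk caseins Csn2, Csn1s1 and Csn3. So were 9 of 10 lymphocyte probes, with 1 lower, 6 of 8 macrophage probes and 3 of 4 adipocyte probes. Other lists were mixed, with 1 lower each beside 3 of 7 neutrophil, 2 of 4 melanocyte and 5 of 10 skin epithelial probes higher. Hair follicle and sebaceous gland lists each had 1 higher and 2 lower, and mesothelium 1 lower and none higher. Of all tested probes 20.6% were higher and 34.1% lower. The part of these cell types in the keratin slopes was not tested.

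The hair keratins were raised on few arrays, and on some of these several rose together. Krt32, a type I keratin of the hair cuticle, ran from -1.33 through -0.50 to 4.04, and 9 arrays were over 1, 4 of which were over 1 for Lor. Krt27, of the inner root sheath, ran from -0.96 through -0.26 to 4.60 with 8 arrays over 1. Krt35, of the hair matrix and cuticle, ran from -0.54 through 0.018 to 2.48 with 4 arrays over 1. Of the 23 hair keratin and Krtap probes, Krt32 itself among them, at least 1 was over 1 on 18 arrays. On only 6 arrays were 5 or more over 1, all 6 of them over 1 for Krt32 and 3 of them for Lor.

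Arrays rich in hair genes had Lor values on both sides of its gap. Across all arrays Krt32 was higher with Lor (0.26 per log2 unit, limma adjusted p = 9.89e-19), as it was below the gap (0.35, adjusted p = 4.14e-06), and above the gap it did not pass (0.31 ± 0.20, adjusted p = 0.877). On array 295, 17 of the 23 were over 1, with Krtap6-5 at 4.92, Krt27 at 4.41 and Lor at 2.12. On array 273, 16 were over 1, with Krtap14 at 4.95, Krt27 at 4.60 and Lor at -1.52. Array 176 had the highest Krt32, 4.04, and Krt35, 2.48, with Lor at 3.91 and 10 hair members over 1, and array 52 had the highest Lor, 3.97, with only 4. Array 91, with 13, lay just above the Lor gap at 0.44, and array 71, with 10, just below it at 0.022. Arrays 86 and 18 were over 1 for Krt32 and had 3 and 1 hair members over 1, so on array 18 it was Krt32 alone. All these counts include Krt32. Krt82, Krt86, Krtap13, Krtap4-9 and Krtap5-4 were never over 1 on any array.

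**Figure D4:**
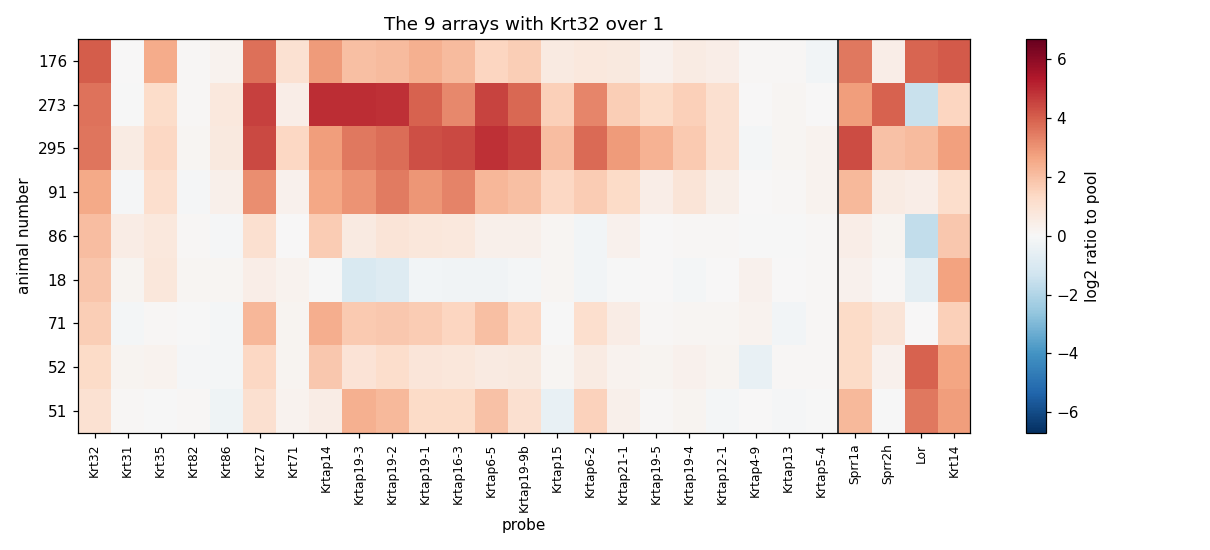
Log2 ratio to the pool (colour, red above the pool and blue below) on the 9 arrays with Krt32 over 1 (rows, by animal number, ordered by Krt32) for the 23 hair keratin and keratin-associated probes and, right of the line, Sprr1a, Sprr2h, Lor and Krt14. Animals 273 and 295 are red across most hair probes, Lor is blue for 273 and red for 295, and the columns of Krt31, Krt82, Krtap4-9, Krtap13 and Krtap5-4 are pale throughout.

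By its place on the list, Krt31 was the keratin chosen to stand for hair, but it did not vary as Krt27 and Krt32 did. It ran from -1.02 through 0.0072 to 1.43 over 315 arrays without falling in clusters. With limma, 33 of 59 members were higher with Krt31 (55.9%) against 43.3% of all tested probes, and 5 were lower (8.47%) against 36.9%. The closest was Krt16, a wound keratin (0.69 ± 0.03, limma adjusted p = 2.2e-73), and Krt71, Krt8 probe a, Krt35, Sprr1a, Krt82, Krtcap2, Sprr2j-ps, Krt19 and Sprr2e followed with 0.37 to 0.52. Krtap15 was lower, at -0.58 ± 0.06 (limma adjusted p = 1.42e-17), and so was Krtap19-2, at -0.36 ± 0.17 (limma adjusted p = 0.0486), which turned to 0.077 under quantile normalization. Krt27 and Krt32 did not pass, at 0.084 ± 0.105 and 0.13 ± 0.11 (limma adjusted p = 0.461 and 0.279). Of the 4 other shaft keratins, Krt32 among them, 3 were higher with Krt31 and none lower. Of the 16 keratin-associated probes 9 were higher and 4 lower. Krt82 had r = 0.82 with Krt31 above the Lor gap and 0.76 below (each permutation p = 1e-05). Krt31 rose with the SD of the whole array, with r = 0.32 (permutation p = 1e-05) and rho = 0.18 (permutation p = 0.00137) over 315 arrays, and r = 0.21 without the 2 farthest. Krt16 and Sprr2e had r = 0.41 and 0.36 with it (rho 0.24 and 0.23, permutation p at most 3e-05), and Krt27 had r = -0.06 (rho 0.0015, permutation p = 0.209 and 0.979). Krtap15 fell with the SD of the array, with r = -0.31 (permutation p = 1e-05) and rho = -0.18 (permutation p = 0.00153). Over the 8 relations tried with that SD, the adjusted p was 2e-05 for r of Krt31. The part of that array-wide spread in the slopes with Krt31 was not tested.

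Krt32 was therefore added as an anchor after the data were seen. It was taken because it varied as Krt27 did, so the calls that follow describe these arrays and are no separate support for a hair group. The Krt32 values fell in clusters, 304 arrays below and 15 above, which is the smallest side allowed. Among the 15, limma gave 5 of 59 members higher (8.47%) against 0.0906% of all tested probes, and none lower. They were Krt27 (1.25 ± 0.13, adjusted p = 0.000322), Krtap14 (1.07 ± 0.17), Krtap19-1 (0.99 ± 0.17), Sprr1a (0.90 ± 0.15) and Krt35 (0.50 ± 0.07), the last 4 with adjusted p of 0.0246 or less. Krtap14 reaches the limits of the deposited scale on 3 arrays. None of the 5 passed after quantile normalization. Leaving out 1 array gave 3 calls without animal 91, 231, 273 or 295, 8 without animal 18 and 10 without animal 176, and Krt27 and Krt35 passed in all 15 such fits.

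The genes outside the members that were most like Krt32 over those 15 arrays included Padi3 (r = 0.97), Psors1c2 (0.95), S100a3 (0.93), Lrrc15 (0.92), Fbp1 (0.88), Crnn (0.87) and Tchh (0.86). Padi3 encodes the enzyme that converts arginine to citrulline in hair proteins, and Tchh encodes trichohyalin, its substrate in the inner root sheath. Of 6 probes for hair follicle genes other than keratins 3 were higher, Tchh (1.86), Padi3 (0.83) and S100a3 (0.44). Lor had a slope of -0.00015 with Krt32 on these arrays, with a SE of 0.42. On the 304 arrays below the Krt32 gap, 15 members were higher (25.4%) against 2.2% of all tested probes and none lower against 1.69%. There the largest slopes were those of Lor (1.60 ± 0.18), Krt15 (1.56 ± 0.19) and Krt14 (1.40 ± 0.19), with limma adjusted p of 2.08e-09 or less.

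The inner root sheath and shaft genes showed the same pattern in pairs, resting on a handful of arrays. Krt27 and Krtap6-5 had r = 0.90 (permutation p = 1e-05) and rho = 0.67 (permutation p = 0.00019) above the Lor gap, and 0.88 without the 2 farthest arrays. Below it they had r = 0.78 (permutation p = 1e-05) and rho = 0.22 (permutation p = 0.00012), which became r = 0.28 without those 2. Most of the Pearson correlation below the gap thus comes from 2 arrays. Krt71, another keratin of the inner root sheath, had r = 0.06 (permutation p = 0.311) and rho = -0.006 (permutation p = 0.917) with Krt27 there.

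Of the Sprr genes, Sprr1a was raised mostly on arrays with raised Krt32, Sprr2h on a few arrays, and the others varied little. Sprr1a, an envelope precursor induced in stressed and appendage epithelium, ran from -0.54 through -0.17 to 4.39. Of its 8 arrays over 1, 7 were over 1 for Krt32 and 4 for Lor. Sprr2h ran from -0.57 through 0.049 to 3.97, with its highest values on arrays 273 and 295, both over 1 for Krt32, while the other 2 of its 4 arrays over 1 were not. It had r = 0.74 (permutation p = 8e-05) and rho = 0.53 (permutation p = 0.004) with Krt27 above the Lor gap, and r = 0.49 without the 2 farthest arrays. Below the gap r was 0.54 (permutation p = 0.00027) but rho was -0.003 (permutation p = 0.96), and r was -0.05 without the 2 farthest arrays. With Krt32 above its gap it did not pass (limma adjusted p = 0.76). The other 12 Sprr probes had SDs from 0.106 to 0.218, and only Sprr3 (highest 1.18) and Sprr2b probe b (1.03) reached 1, on 1 array each. The Sprr2 genes are near-identical copies, so a probe of one may read another.

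The keratins of wet stratified linings varied little. Krt4 ran from -0.23 through 0.061 to 0.51, and the Krt13 probes from -0.35 through 0.0028 to 0.87 and from -0.43 through 0.079 to 0.69. With Lor above the gap, Krt13 probe a had a slope of -0.041 (limma adjusted p = 0.877). Krt12, the keratin of the cornea, was over 1 on 25 arrays, 1 of them over 1 for Lor, and 2 of its values lie at the upper limit of the scale. It ran from -2.59 through 0.083 to 6.64 and had r = 0.32 with the SD of the array (permutation p = 4e-05, rho = 0.13, permutation p = 0.0181). Krtap19-2 and Krtap19-3 each had 1 or 2 values at the lower limit.

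**Figure D5:**
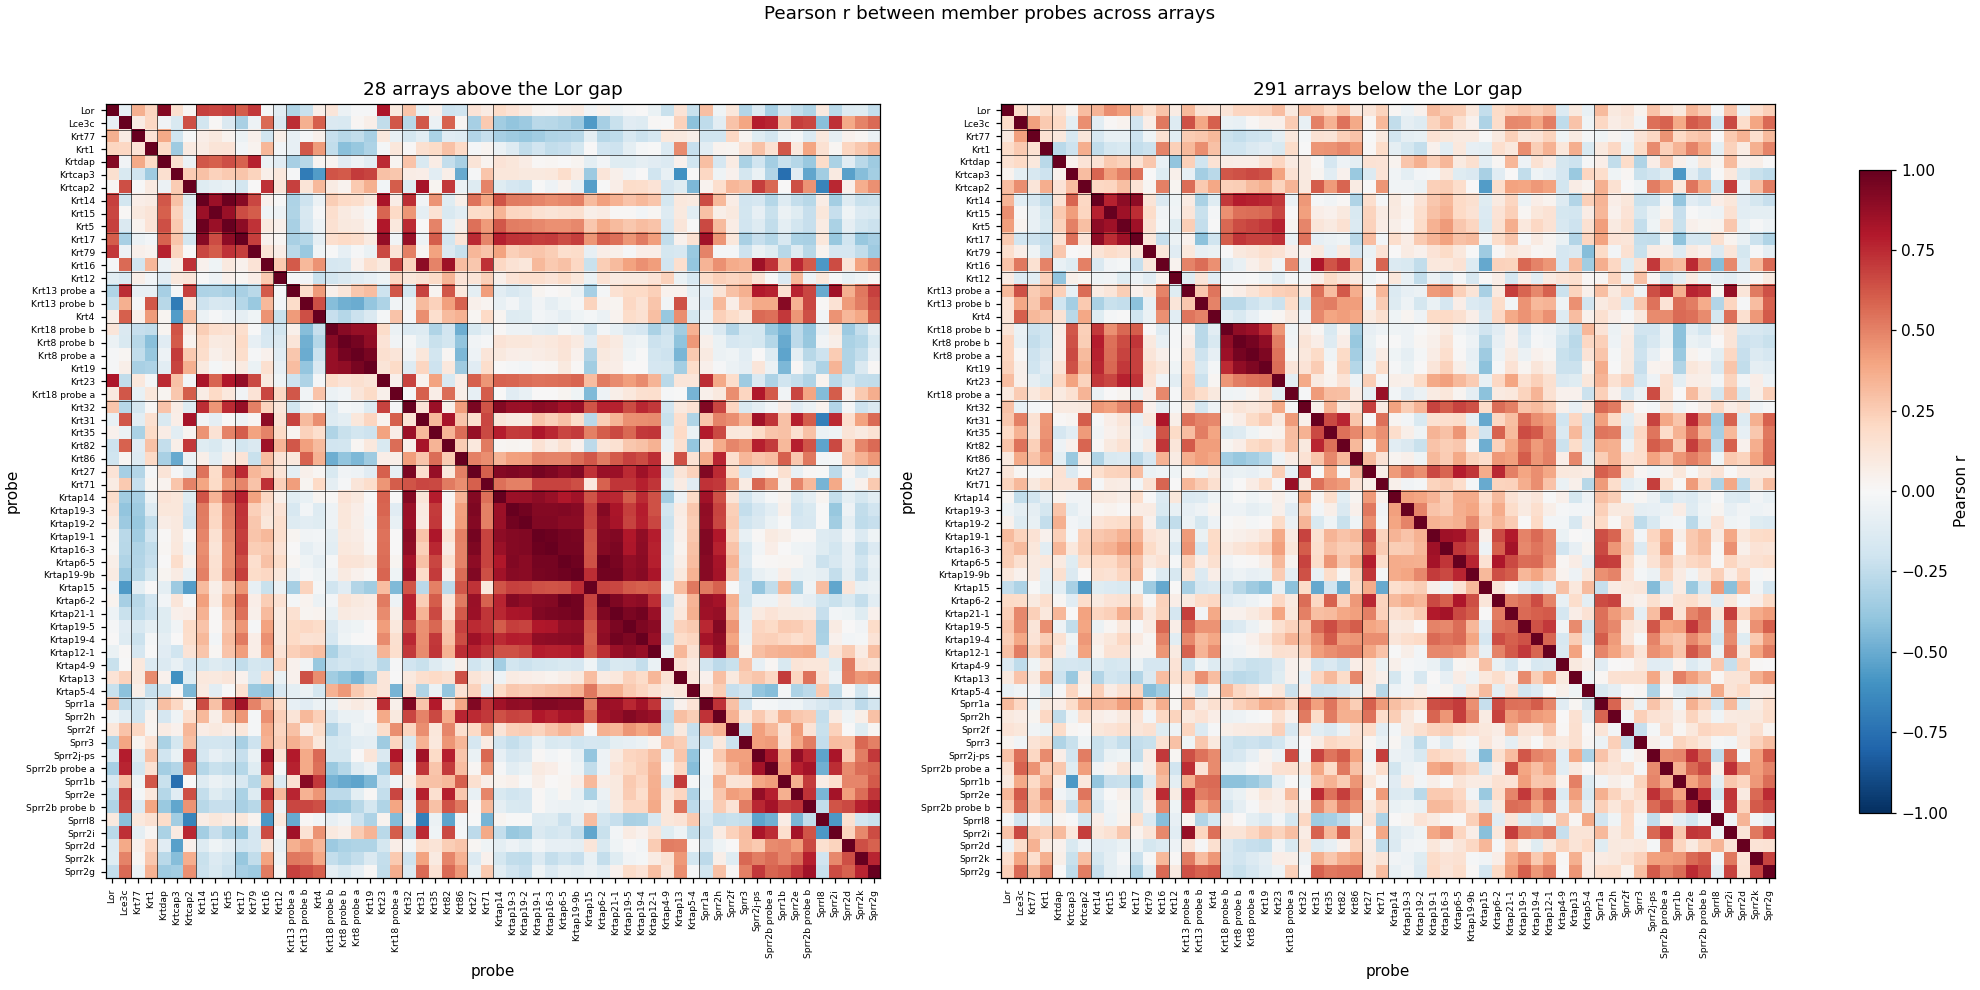
Pearson r between every pair of the 60 member probes across the 28 arrays above the Lor gap (left) and the 291 below (right), with probes in the same order on both axes and lines between role lists. Red is positive and blue negative. On the left the hair keratin-associated block and Sprr1a form a large red square, and Krt8, Krt19 and Krt18 probe b a small separate one. On the right the basal and simple keratins join, as in r = 0.75 for Krt14 and Krt19.

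The heat map of correlations gives the spread within each role. The mean r among the 3 basal genes was 0.90 above the gap and 0.84 below. Among the 16 keratin-associated probes it was 0.57 above and 0.26 below, among the 14 Sprr probes 0.28 and 0.24, and between the suprabasal keratins Krt1 and Krt77 0.14 and 0.15. The members lie on few chromosomes, 15 genes on chromosome 3, 13 on chromosome 11, 12 on chromosome 16 and 10 on chromosome 15. Members that varied differently share a chromosome. Lor and the flat Lce3c and Sprr2e share chromosome 3, and Krt14, Krt19, Krt31 and Krt32, of different groups, share chromosome 11.

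Animal number is the only order the labels hold, and few members changed along it. With limma, 5 of 60 members were higher with number (8.33%) against 18.9% of all tested probes and 7 were lower (11.7%) against 11.8%. Per 100 numbers, Krt15 fell by 0.15 (SE 0.06, limma adjusted p = 0.0446), Krt79 fell by 0.10 (adjusted p = 0.00309), Krtdap fell by 0.08 (adjusted p = 0.00636) and Krt19 fell by 0.06 (adjusted p = 0.045). Sprr3 rose by 0.054 (adjusted p = 4.56e-05). The calls of Krt15 and Krt19 were lost in 4 of 8 alternatives, with quantile normalization, the first principal component removed, normal scores and without arrays of outlying SD (limma adjusted p up to 0.457 and 0.747). The call of Krt79 was lost in 2 of 7 and that of Krtdap in 1 of 7. Krt71, Krt18 probe a and Krtap5-4, also lower with number, kept the call in all 8, as did Sprr3. Among all called probes the share that rose was 61.6%, and 48.4% after array medians were subtracted. Lor, Krt14, Krt5, Krt27 and Krt32 were not among the members called.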

How the data were processed

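The deposited table holds 1 value per probe and array. The authors' deposited values are log10 ratios by the evidence of their limits at exactly -2 and 2, since the labels state neither base nor direction, and the missing share was 0.654%. Their normalization is not given in any source read. They were converted to log2, and the direction was taken from Y-linked genes. Genes were named through the platform table (1 symbol for 13639 probes, several for 48, none for 9695), and 58 of 60 member IDs were found in RefSeq (GRCm38.p6).

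Members and lists were chosen with earlier results of these data known. For each anchor (Lor, the mean Krt18, Krt31, Krt32, animal number), limma 3.58.1 in R 4.3.3 regressed all 23190 probes with values on at least 80% of arrays on it, two-sided, with a threshold of 0.05 on the Benjamini-Hochberg adjusted p. The anchor's own probes were left out. Such a fit uses each array as 1 animal, and nothing further says that arrays were separate extractions. The script was tested on simulated data. Names were drawn from the first 2 genes of each role list, the 12 members with the largest slopes in each fit and the 10 other genes most like the anchor. Not all of these are printed for every fit, and some further genes are named. Correlations used two-sided permutations of 100000 resamples. The number of arrays limits the precision. Other scalings, filters, splits and left-out arrays were tried. The design names 319 mice and the sample descriptions 330. A sample titled with another number than its source name was placed by the latter.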

Additional observations from a re-analysis of the deposited data

How the results depend on the processing

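Counts of members called higher with Krt18 (12 to 17 over 15 alternatives), with Krt31 (30 to 44 over 12) and with Lor below its gap (32 to 43 over 12) stayed within 1.5 times the reported count under every alternative run. For Lor above its gap, 6 became 0 with quantile normalization, 1 with normal scores, 2 without the 2 farthest arrays and 2 without arrays over 1 for Krt32, and leaving out 1 array gave 3 to 7, with 3 without animal 176. For Krt32 above its gap, 5 became 0 with quantile normalization, 0 with normal scores, 10 with the first principal component removed, 2 with the third of animal numbers as a factor and 1 without the 2 farthest arrays, and leaving out 1 array gave 3 to 10. Below that gap 15 became 40 with quantile normalization. For animal number, 5 became 3 with array medians subtracted, 1 with the first principal component removed and 8 without arrays of outlying SD. The cause of these shifts was not tested.

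Quantile normalization reversed the slopes with Lor below the gap of Krt79 (-0.079), Krtap15 (0.059), Sprr2f (-0.036) and Krtdap (-0.0014), that of Sprr2g with Krt18 (0.011) and that of Krtap19-2 with Krt31 (0.077). Removing the first principal component reversed those of Krt1 (0.018), Sprr2k (0.0013) and Sprr2g (0.023) with Krt18. Of the other alternatives for single members, 1788 kept the call and 146 lost it. The Krt32 fits and the fits that leave out an array were added after the data were seen. No paired analysis was possible because all arrays form 1 group. The fits above the gaps rest on 28 and 15 arrays.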
